A study of Homo sapiens with 72 samples.

Results

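The response of long non-coding RNA (lncRNA) genes to TGF-β in MCF10A-M2 cells was examined at 8 h, with cells given the receptor inhibitor SB431542 (SB) for the same time as the comparison. MCF10A-M2 (M2) is a human breast epithelial line made from MCF10A by transformation with HA-Ras and is labelled pre-malignant. Before treatment the cells were kept in medium without serum overnight. The treated group had TGF-β at 5 ng/mL for 8 h and the inhibited group had SB at 10 µM for 8 h, with 3 biological replicates each. The controls at 0 h had no TGF-β, and the first SB samples carry 0 h in one label and 0.5 h in another, so they are called the earliest SB samples. DMSO and ligand buffer are named as vehicles, and no vehicle-only library at 8 h was analysed here, so a difference between the arms can hold a change with either agent. All lncRNA genes that reached 0.5 TPM in 3 or more of the 24 M2 libraries were taken, which gave 16958 of the 96411 genes in the table (17.6%). TPM, the unit of the table, is a share of a library corrected for transcript length, and here the lncRNA genes alone make up the whole.

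TGF-β binds a pair of serine/threonine kinase receptors, the type II receptor and the type I receptor, and the type I receptor then phosphorylates SMAD2 and SMAD3. These join SMAD4, enter the nucleus and regulate transcription together with other factors. SB431542 blocks the kinase of the type I receptor and so also silences signalling from TGF-β that the cells make themselves. LncRNA genes are transcribed without coding for a protein, many of them at low levels, and in breast epithelial cells TGF-β signalling is known for growth arrest and for the epithelial to mesenchymal transition.

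The identifiers come from the NONCODE catalogue, and 0 of them could be paired with a gene symbol. For this reason 2 genes that were higher and 2 that were lower with TGF-β are named by identifier, and the other leading genes are named by the rank of their difference. Positions, sequences and functions of these genes, protein-coding markers of the line and the level of HRAS were not analysed here. Genes just inside and just outside the rule were alike in level at 8 h. The 601 members whose third-highest TPM exceeded the limit by no more than 0.05 had a median of 0.161 TPM at 8 h, and the 647 genes short of it by no more than 0.05 had a median of 0.149 TPM.

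With TGF-β more lncRNA genes were higher than lower against SB. On TPM as deposited, limma called 1024 of 16958 genes higher (6.04%) and 150 lower (0.885%) at an adjusted p under 0.05, and 3677 genes had an unadjusted p under 0.05. The higher genes also had larger log2 differences. Of the 1024 higher genes 894 differed by at least 1 on the log2 scale, 156 by at least 2 and 34 by at least 3, whereas of the 150 lower genes 90 differed by at least 1, 6 by at least 2 and 0 by at least 3. The median size among the called genes was 1.40 for the higher and 1.09 for the lower. Log2 differences are on the scale log2(TPM + 0.5) throughout, on which genes of low level show less than their true change. The added 0.5 limits how far a gene of low level can fall, but not how far it can rise. Sizes of the higher and lower genes are thus not on equal terms, and the part of this limit in their contrast was not tested.

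How lopsided the response looked depended on how the libraries were put on a common scale. In these 6 libraries 28.3% to 35.6% of the TPM went to 1 gene and 62.3% to 72.3% to 10 genes, so the rest share what is left. As deposited, the median log2 difference of all 16958 genes was 0.23, in favour of TGF-β. Scaling the libraries by the median over genes of their ratios to a common reference (median-of-ratios scaling) brought that median to 0.06, with 1072 genes higher (6.32%) and 826 lower (4.87%). Quantile normalization gave a median of −0.04, with 871 higher and 823 lower. When the total did not include the 10 most abundant genes, the median was 0.16, with 588 higher and 86 lower. After median-of-ratios scaling 929 of the 1024 higher genes and all 150 lower genes were still called the same way, and 0 were called the opposite way. Genes that were not called as deposited could change sign, since the median of all genes itself turned from 0.23 to −0.04 with quantile normalization. Under all 4 scalings 508 genes were called higher (3%) and 81 lower (0.478%).

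The 3 libraries of a group did not weigh alike in these counts. Detected at 0.5 TPM or more were 11751, 13638 and 13822 lncRNA genes in TGF-β replicates 1, 2 and 3, and 10559, 10930 and 11913 in the SB replicates. TGF-β replicate 1 thus lay within the range of the SB libraries, apart from the other 2 of its group. The means were 13070 ± 1146 with TGF-β and 11134 ± 700 with SB (SD, n = 3), and an exact two-sided permutation test gave p = 0.2, where 0.1 is the smallest p that 3 against 3 can give. The share of TPM in the 10 most abundant genes was 72.3%, 64.9% and 62.3% with TGF-β and 70.4%, 70.8% and 67% with SB (exact permutation p = 0.4). Without TGF-β replicate 1 limma called 1491 genes higher and 98 lower. Without TGF-β replicate 2 or 3 there were 451 and 406 higher and 85 and 99 lower. Without SB replicate 1, 2 or 3 there were 456, 552 and 788 higher and 79, 91 and 88 lower. A core of 337 higher and 58 lower genes was called in all 6 of these fits. Under all 4 scalings the counts without 1 library ran from 272 to 429 higher and from 43 to 58 lower, and 207 and 27 genes were called in every one. The part of library quality in the counts was not tested. Across genes r was 0.959 to 0.964 between TGF-β libraries, 0.964 to 0.968 between SB libraries and 0.93 to 0.952 between the groups. Read depth is unknown, since TPM does not keep it.

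Groups that did not overlap at all were more frequent than calls. In 3666 genes (21.6%) all 3 TGF-β libraries lay above all 3 SB libraries as deposited, and in 1091 genes (6.43%) they lay below. Such separation alone gives p = 0.1 in an exact two-sided permutation test, so genes without a change can reach it. These counts also hold the shift of all genes as deposited (median log2 difference 0.23). Among the called genes, 1009 of the 1024 higher and 148 of the 150 lower had no overlap. The 15 leading genes in each direction were taken from the 917 higher and 148 lower genes that were called under both the deposited and the median-of-ratios scale and had no overlap.

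NONHSAG048398.2 had the largest difference of all these genes. It stood at 336, 528 and 529 TPM in the TGF-β libraries and at 8.78, 19.2 and 21.9 TPM in the SB libraries. Every TGF-β library was far above every SB library. The log2 difference was 4.83 (SE 0.29, limma adjusted p = 3.4e-10), and it was 4.57 after median-of-ratios scaling.

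The next gene, NONHSAG016461.2, was nearly silent in the inhibited cells. It stood at 21.4, 22.7 and 20.3 TPM with TGF-β and at 0, 1.02 and 0.274 TPM with SB. The TGF-β libraries were tightly grouped and well clear of the SB libraries, one of which listed the gene at 0. The log2 difference was 4.71 (SE 0.55, limma adjusted p = 3.75e-06), and 4.47 after rescaling.

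Among the genes that were lower with TGF-β, NONHSAG032247.3 led with 0.0457, 0.49 and 0.142 TPM in the TGF-β libraries against 3.08, 3.82 and 3.01 TPM in the SB libraries. All TGF-β values were under the 0.5 TPM of the member rule, and no SB value was near them. The log2 difference was −2.43 (SE 0.39, limma adjusted p = 0.000303), and −2.52 after rescaling. Its lead held as deposited only, since after rescaling NONHSAG072189.1 had the larger difference (−2.58).

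NONHSAG072189.1 followed with 2.09, 2.91 and 2.31 TPM with TGF-β and 12.1, 14.3 and 17.8 TPM with SB. The gene was present in all 6 libraries and the groups were far apart. Its log2 difference was −2.37 (SE 0.23, limma adjusted p = 3.56e-07), and −2.58 after rescaling. All 4 named genes kept their direction and their call under each of the 16 alternative settings tried.

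**Figure D1:**
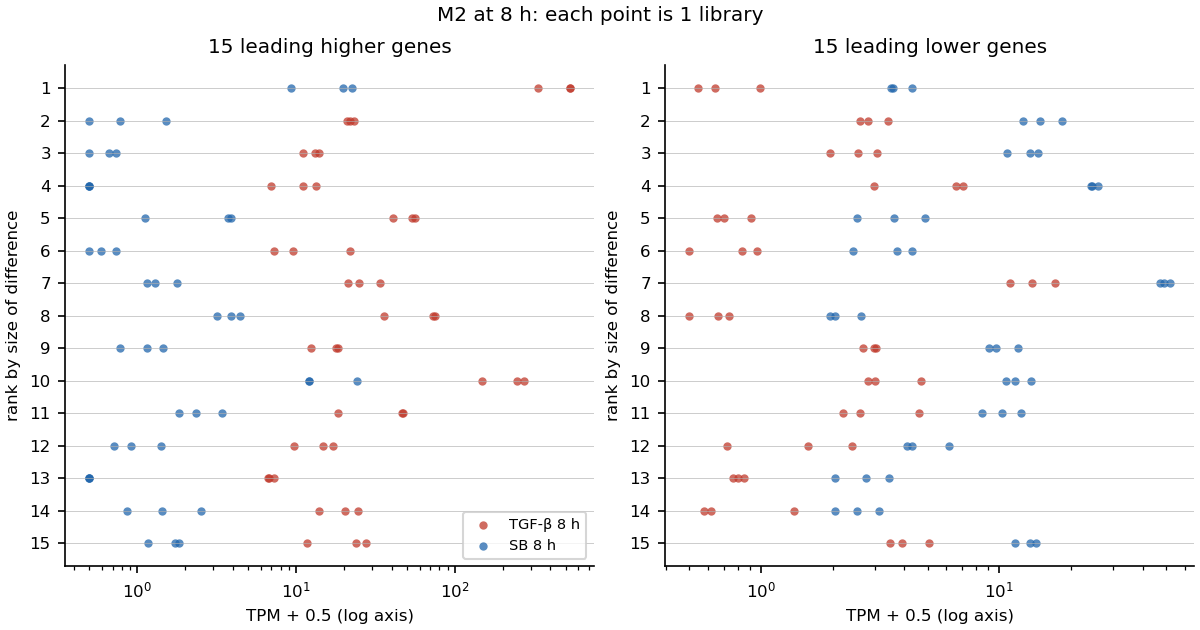
TPM + 0.5 (log axis) of the 15 leading higher genes (left) and the 15 leading lower genes (right) in M2 at 8 h, by rank of their difference; each point is 1 library, red for TGF-β and blue for SB. In all 30 genes the red and blue points are apart, as the choice of genes requires, and the gaps are wider on the left (log2 differences of 3.68 to 4.83) than on the right (−2.43 to −1.68).

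The 15 leading higher genes spanned a wide range of levels. Their log2 differences ran from 3.68 to 4.83, their means from 6.4 to 464 TPM with TGF-β and from 0 to 16.6 TPM with SB, and all 15 were called under all 4 scalings. The most abundant after the first was the gene of rank 10, with 148, 246 and 271 TPM with TGF-β and 11.5, 11.6 and 23.6 TPM with SB. The genes of rank 4 and rank 13 were listed at 0 in all 3 SB libraries. With TGF-β the gene of rank 13 stood at 6.14, 6.3 and 6.76 TPM and that of rank 4 at 6.43, 10.6 and 12.9 TPM. They differed in how steady they were elsewhere. That of rank 13 was also listed at 0 in all earliest SB and all 2 h SB libraries, while that of rank 4 ranged from 3.73 to 18.1 TPM in the earliest SB libraries and from 0 to 13.7 TPM in the controls. Of these 15 genes that of rank 4 alone lost its call when some single library was left out.

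The 15 leading lower genes lay lower and closer together. Their log2 differences ran from −2.43 to −1.68, their means from 0.13 to 13.5 TPM with TGF-β and from 1.7 to 49.1 TPM with SB, and 14 were called under all 4 scalings. The gene of rank 7 was the most abundant, with 10.6, 13.2 and 16.6 TPM with TGF-β and 48.8, 47 and 51.5 TPM with SB. Rank 4 stood at 2.48, 6.06 and 6.53 TPM with TGF-β and 25.4, 23.8 and 24.1 TPM with SB, so that its SB libraries were nearly equal and its first TGF-β library the lowest. The genes of rank 12 and rank 14 lost their call when some single library was left out. In all, 27 of the 30 leading genes stayed called in each of the 6 fits without 1 library, and 26 did so under all 4 scalings.

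The called genes were not spread evenly over the levels. Members were put into bands by their mean TPM over the 24 M2 libraries. Of the 7904 genes under 1 TPM 346 were higher (4.38%) and 22 lower (0.278%), and of the 5890 genes from 1 to 10 TPM 489 were higher (8.3%) and 56 lower (0.951%). Of the 2607 genes from 10 to 100 TPM 162 were higher (6.21%) and 59 lower (2.26%), and of the 557 genes of 100 TPM or more 27 were higher (4.85%) and 13 lower (2.33%). The median log2 difference of all genes in a band went from 0.26 and 0.31 in the 2 lower bands to 0.06 and 0.00 in the 2 upper bands. After median-of-ratios scaling these medians were 0.15, 0.10, −0.19 and −0.26, and there were more lower calls in every band. From the lowest band to the highest, 61, 227, 426 and 112 genes were then called lower, and 348, 513, 184 and 27 higher. Precision also differed by level. At the median standard error of its band a gene needed a log2 difference of 1.19 under 1 TPM and 0.64 at 100 TPM or more to be called as deposited.

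**Figure D2:**
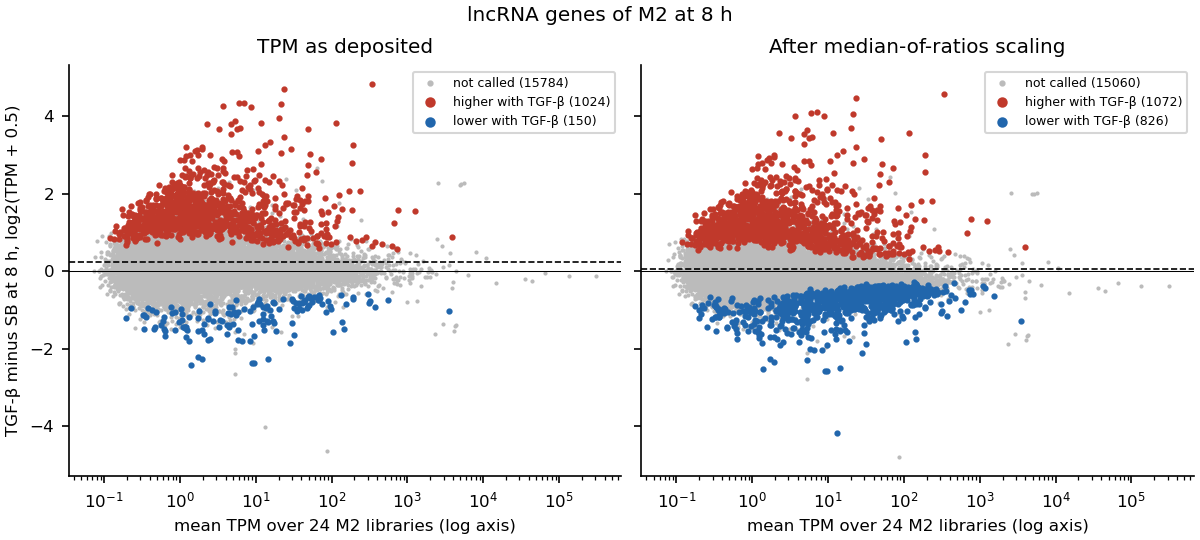
Log2 difference, TGF-β minus SB at 8 h, against the mean TPM over the 24 M2 libraries (log axis) for the 16958 lncRNA genes, as deposited (left) and after median-of-ratios scaling (right). Each point is a gene, red called higher, blue called lower and grey not called; the dashed line is the median of all genes, which moves from 0.23 to 0.06, and the blue genes go from 150 to 826, mostly at 10 TPM or more.

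Among the 10 genes with the highest mean TPM 0 were called under either of these scalings, a count that says little where 6.04% of all members were called higher and 0.885% lower as deposited. The most abundant gene took 35.6%, 29.3% and 28.3% of the TPM with TGF-β and 34.6%, 34.9% and 32.5% with SB, and the groups overlapped. A few abundant genes swung between replicates. The sixth most abundant stood at 0.505, 48919 and 45114 TPM with TGF-β and at 0.325, 15119 and 16.5 TPM with SB, so that in both groups replicates differed more than the groups did (limma adjusted p = 0.6). In all, 8 genes reached 100 TPM in 1 library and stayed under 1% of that in another library of the same group at 8 h. These 8 included 4 genes with consecutive identifiers that went up and down together. None was called, and together they took 0.02% to 5.74% of the TPM of the TGF-β libraries and 0.0611% to 1.56% of that of the SB libraries. With these 8 left out and the libraries rescaled, 1164 genes were called higher and 135 lower.

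At 8 h some genes were seen with one agent only, though many of them were seen with the other agent at another time. Of the 16958 members, 35 were listed at 0 in all 3 SB libraries and at 0.5 TPM or more in all 3 TGF-β libraries, and 3 showed the reverse. In the first set the TGF-β means ran from 0.532 to 9.99 TPM with a median of 1.13 TPM, and 33 were called higher. In the 3 genes of the reverse set the SB means ran from 0.701 to 0.916 TPM, and 1 was called lower. The same 8 h values chose both sets, so the calls within them follow largely from the choice and are no separate test. Of the 35 genes, 5 were at 0 in all controls at 0 h, 12 were at 0.5 TPM or more in all TGF-β libraries at 24 h and 8 were at 0 in all SB libraries at 24 h. Most of the 35 were thus above 0 in at least 1 control library. Over all members, 368 were at 0 in all 3 SB libraries and 165 in all 3 TGF-β libraries, with 42 common to both. At 0.5 TPM or more in all 3 libraries were 8885 members with SB and 10454 with TGF-β. These counts move with the number of genes detected, given above for each library, and that part was not tested.

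The difference at 8 h can come from a change with TGF-β, a change with SB or both. Levels at the start are given beside it. Without a vehicle-only library at 8 h, they cannot separate the part of an agent from that of time. At the start few genes passed the test. Between the controls and the earliest SB samples limma called 2 genes (0.0118%), which had the higher level in the controls. After median-of-ratios scaling 0 were called, with 1618 and 1796 genes at an unadjusted p under 0.05. From 0 h to 8 h with TGF-β limma called 450 genes higher (2.65%) and 374 lower (2.21%), and after rescaling 892 (5.26%) and 599 (3.53%). From the earliest SB samples to 8 h of SB it called 22 higher (0.13%) and 318 lower (1.88%), and after rescaling 196 (1.16%) and 103 (0.607%), so the direction of the SB change over time turned with the scaling. These comparisons share their 8 h libraries with the comparison between the arms and are given beside it as values only.

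Most of the leading genes were called different between 0 h and 8 h with TGF-β. The same 8 h libraries chose these genes, so such counts are favoured by the choice and are no separate test. Of the 15 leading higher genes 13 rose between 0 h and 8 h with TGF-β, and 6 fell between the earliest SB samples and 8 h of SB (3 after rescaling). NONHSAG048398.2 belonged to those that rose without a called change with SB. It went from 12.6 ± 3.36 TPM in the controls to 464 ± 111 TPM with TGF-β (SD, n = 3, log2 change 5.15, limma adjusted p = 8.49e-11). With SB it went from 18.8 ± 3.23 to 16.6 ± 6.92 TPM (log2 change −0.25, limma adjusted p = 0.639). In both arms moved the gene of rank 10. It rose from 92.4 ± 14 to 221 TPM with TGF-β (log2 change 1.22, limma adjusted p = 0.00977) and fell from 112 ± 26.4 to 15.6 TPM with SB (log2 change −2.87, limma adjusted p = 5.37e-06). Rank 8 likewise rose from 24.8 ± 2.9 to 35.5, 74.8 and 72.1 TPM with TGF-β (log2 change 1.21, limma adjusted p = 0.0489) and fell from 14.4 ± 3.59 to 3.39, 2.67 and 3.94 TPM with SB (log2 change −1.94, limma adjusted p = 0.00772).

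Of the 15 leading lower genes 13 fell between 0 h and 8 h with TGF-β, while with SB 1 rose and 1 fell (3 and 1 after rescaling). NONHSAG072189.1 was one of the 13. It fell from 12.3 ± 3.23 TPM in the controls to 2.09, 2.91 and 2.31 TPM with TGF-β (log2 change −2.11, limma adjusted p = 2.4e-06), and with SB its log2 change was 0.08 (limma adjusted p = 0.869). NONHSAG032247.3 was not. Its TGF-β level was 0.342 ± 0.22 TPM at 0 h already (log2 change −0.23, limma adjusted p = 0.812), and with SB it went from 1.23 ± 0.738 TPM to 3.08, 3.82 and 3.01 TPM, a log2 change of 1.23 that missed the threshold (limma adjusted p = 0.0959). Its arms were apart by −0.97 at the start (limma adjusted p = 0.427).

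**Figure D3:**
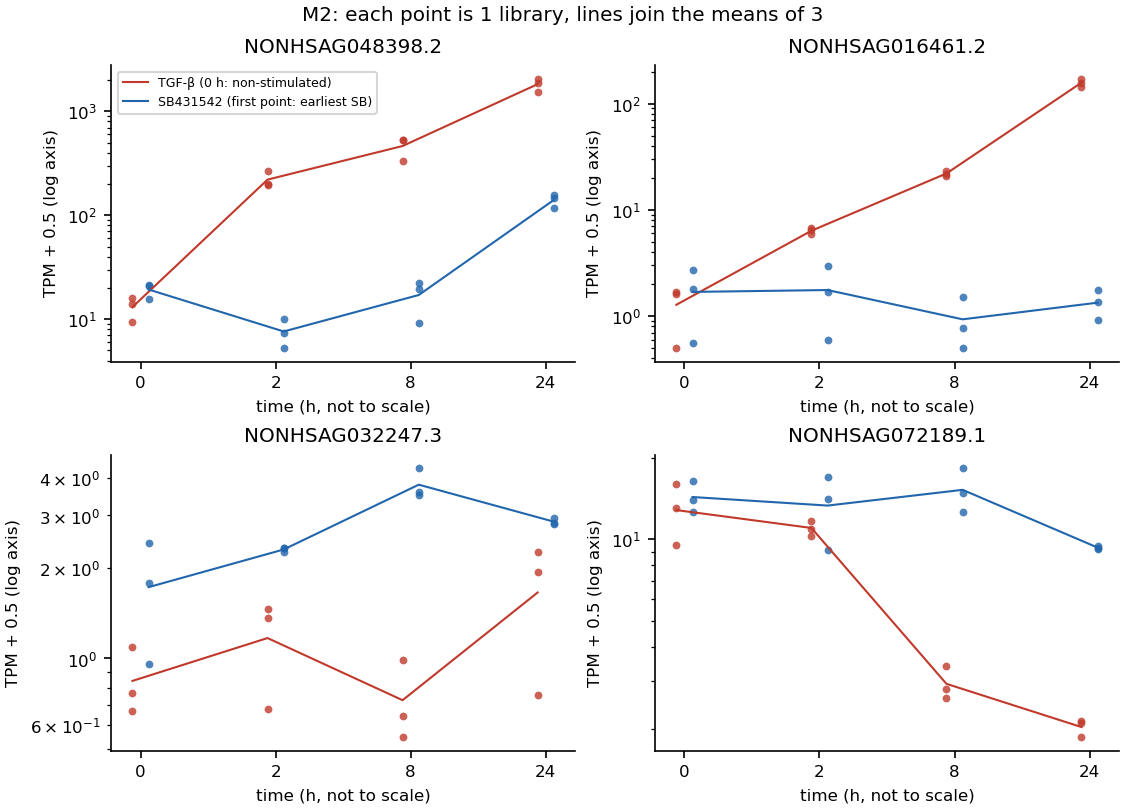
TPM + 0.5 (log axis, own range in each panel) of the 4 named genes in the 24 M2 libraries against time in h (0, 2, 8 and 24, not to scale); each point is 1 library, red for TGF-β and blue for SB, and lines join the means of 3. The 2 upper genes separate from 2 h on in the TGF-β arm, NONHSAG072189.1 (lower right) separates at 8 h by the fall of the TGF-β arm, and NONHSAG032247.3 (lower left) has its highest mean with SB at 8 h.

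Time courses of the called genes were read from the 508 higher and 81 lower genes called under all 4 scalings. Their 8 h values chose them and carry no test. In the higher genes the median level with TGF-β, as log2(TPM + 0.5), was 0.99 at 0 h, 1.3 at 2 h, 1.97 at 8 h and 1.03 at 24 h. With SB it was 0.73, 0.32, −0.05 and −0.01. The medians thus moved apart in both directions, and the gene-by-gene change from the 0 h controls at 8 h had a median of 1.06 with TGF-β and −0.66 with SB. Over all 16958 members the same medians were −0.08 and −0.30. The return at 24 h depended on the scaling, since after median-of-ratios scaling the median with TGF-β was 1.75 at 8 h and 1.64 at 24 h. In the lower genes the median with TGF-β went from 2.32 at 0 h over 1.72 at 2 h and 0.92 at 8 h to −0.20 at 24 h, and with SB it was 2.49, 2.17, 2.2 and 1.21. Here the change from the controls at 8 h had a median of −1.17 with TGF-β and 0.16 with SB. After median-of-ratios scaling the median of the lower genes with TGF-β was 0.73 at 8 h and 0.18 at 24 h. Over all members the change from the controls at 24 h had, as deposited, a median of −0.74 with TGF-β and −0.64 with SB.

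**Figure D4:**
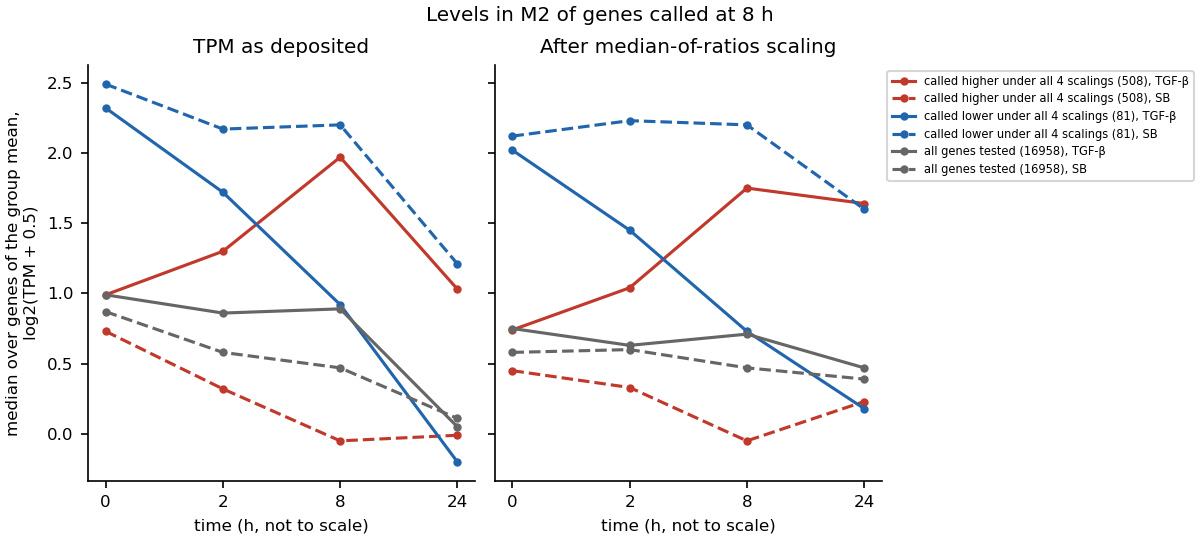
Median over genes of the group mean, log2(TPM + 0.5), against time in h (0, 2, 8 and 24, not to scale) in M2, as deposited (left) and after median-of-ratios scaling (right). Red lines are the 508 genes called higher under all 4 scalings, blue lines the 81 called lower and grey lines all 16958 genes, solid for TGF-β and dashed for SB; the red lines are farthest apart at 8 h, and the solid blue line goes down to 24 h in both panels.

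The same comparison of the arms was made at 2 h and 24 h, with other libraries but in the same fit. At 2 h limma called 684 genes higher (4.03%) and 18 lower (0.106%), and after median-of-ratios scaling 313 (1.85%) and 87 (0.513%). At 24 h it called 531 higher (3.13%) and 1280 lower (7.55%), and after rescaling 1620 (9.55%) and 1438 (8.48%). As deposited, 271 of the genes higher at 8 h were also higher at 2 h, which is 26.5% of the 8 h list and 39.6% of the 2 h list. At 24 h 262 were higher, 25.6% of the 8 h list and 49.3% of the 24 h list. Of the 150 genes lower at 8 h 6 were lower at 2 h (4% of the 8 h list and 33.3% of the 2 h list) and 101 at 24 h (67.3% and 7.89%). Split by time, 141 of the 1024 higher genes were called at all 3 times, 130 at 2 h and 8 h, 121 at 8 h and 24 h and 632 at 8 h alone. For the 150 lower genes these numbers were 5, 1, 96 and 48. Passing at 8 h and not at another time does not show a difference between the times, which was tested separately. Over all 16958 genes the differences at 8 h correlated with those at 2 h with r = 0.373 and with those at 24 h with r = 0.465, across genes that share the libraries of each group.

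Few genes differed more at 8 h than at 2 h in the test of that difference. As deposited, limma called 2 genes (0.0118%) with a more positive difference at 8 h and 8 (0.0472%) with a more negative one. The counts as deposited rose to 27 and 566 without SB 2 h replicate 1, which had 13996 genes at 0.5 TPM or more against 10705 and 10335 in the other 2. Leaving out any other library of the 4 groups gave 0 to 2 and 3 to 5. After median-of-ratios scaling, with all libraries, the counts were 62 (0.366%) and 162 (0.955%). The 8 h difference, by which the leading genes were chosen, is itself a part of this test. NONHSAG072189.1 was one of the 8. Its arms differed by −0.24 at 2 h and by −2.37 at 8 h, and the difference between these was −2.13 (SE 0.33, limma adjusted p = 0.00736). It kept its call in 19 of 20 other settings and lost it when the total did not include the 10 most abundant genes (limma adjusted p = 0.28, log2 difference −2.17). Rank 10 among the higher genes was one of the 2, with log2 differences of 1.66 at 2 h and 3.82 at 8 h (limma adjusted p = 0.0434). That call was lost in 10 of 20 other settings, with log2 values of 1.93 to 2.5 over the 20 and adjusted p up to 0.26 in limma. Among them were the fits without SB 2 h replicate 2, TGF-β 2 h replicate 2 or 3, SB 8 h replicate 1 or 2, and TGF-β 8 h replicate 2 or 3. NONHSAG048398.2 already had a log2 difference of 4.89 at 2 h, and the change from there to 8 h was −0.06 (SE 0.41, limma adjusted p = 0.977).

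Between 8 h and 24 h more genes differed. As deposited, limma called 55 genes (0.324%) with a more positive and 344 (2.03%) with a more negative difference at 24 h than at 8 h, and after median-of-ratios scaling 375 (2.21%) and 326 (1.92%). The number of more negative genes was 597 without TGF-β 8 h replicate 1. It lay between 143 and 199 without TGF-β 8 h replicate 2 or 3, SB 8 h replicate 1 or 2, TGF-β 24 h replicate 1 or 2, or SB 24 h replicate 1 or 2. The number of more positive genes was 33 without TGF-β 24 h replicate 1 and 33 without replicate 2. NONHSAG016461.2 had its largest difference at 24 h, with 144, 171 and 156 TPM with TGF-β and 0.41, 1.25 and 0.854 TPM with SB. Its log2 difference was then 6.93, against 4.71 at 8 h, and the change between the times missed the threshold (2.22, SE 0.78, limma adjusted p = 0.142). Rank 9 among the lower genes stood at 2.19, 2.47 and 2.54 TPM with TGF-β and 9.22, 8.52 and 11.5 TPM with SB at 8 h. At 24 h it stood at 0.175, 0.0601 and 0.129 TPM with TGF-β and 23.3, 23.3 and 21.2 TPM with SB. Its TGF-β level was lower and its SB level higher than at 8 h, and the log2 difference went from −1.81 to −5.22 (change −3.41, limma adjusted p = 7.52e-07).

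Of the 15 leading higher genes 14 were called higher at 2 h as well (13 after rescaling) and 13 at 24 h under either scaling. Called at neither time was the gene of rank 4, with log2 differences of 2.12 at 2 h and −1.3 at 24 h. Of the 15 leading lower genes 2 were called lower at 2 h (6 after rescaling) and 10 at 24 h (11 after rescaling).

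The 8 h response of M2 was then set beside that of the other lines, each with its own libraries. MCF10A-M1 (M1) is the non-malignant MCF10A line, and MDA-MB-231 is a breast cancer line. Each had the same agents and times in 24 libraries. At 8 h in M1 1130 of 20899 genes were called higher (5.41%) and 604 lower (2.89%), and in MDA-MB-231 111 of 16552 higher (0.671%) and 44 lower (0.266%). Of the M2 genes tested in M1, 993 were higher in M2 and 414 of these were higher in M1 too, 41.7% of the M2 list and 41.2% of the M1 list, where 6.09% of all genes tested in both lines were higher in M1. Of 147 lower genes 97 were lower in M1 (66% of the M2 list and 17.3% of the M1 list), against 3.39% of all. In MDA-MB-231 57 of 765 higher genes were higher (7.45% of the M2 list and 66.3% of the MDA-MB-231 list, against 0.623% of all) and 6 of 120 lower genes were lower (5% and 16.7%, against 0.261%). Across genes tested in both lines the 8 h differences of M2 correlated with those of M1 with r = 0.484 and with those of MDA-MB-231 with r = 0.135.

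Among the leading genes the counts were also higher for M1 than for MDA-MB-231. Of the 15 leading higher genes 14 were higher in M1 and 5 of the 12 tested were higher in MDA-MB-231, and of the 15 leading lower genes 10 were lower in M1 and 2 of the 8 tested in MDA-MB-231. NONHSAG048398.2 stood at 535, 553 and 590 TPM with TGF-β and 14.7, 14.9 and 16.1 TPM with SB in M1. In MDA-MB-231 it stood at 220, 206 and 237 TPM with TGF-β and 35, 32.6 and 34.3 TPM with SB. The groups were apart in all 3 lines, with log2 differences of 4.83 in M2, 5.15 in M1 and 2.68 in MDA-MB-231.

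**Figure D5:**
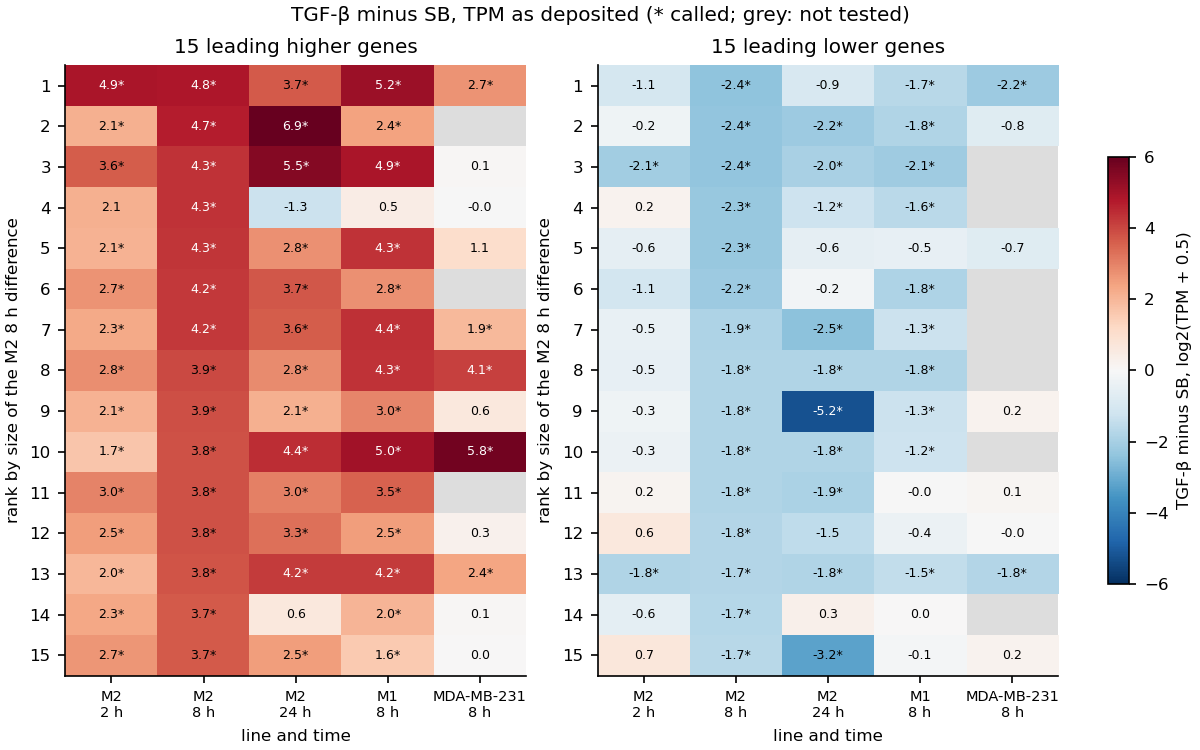
Log2 difference, TGF-β minus SB, of the 15 leading higher (left) and 15 leading lower genes (right), 1 gene per line of cells by rank, in M2 at 2, 8 and 24 h and in M1 and MDA-MB-231 at 8 h; colour and number give the difference, an asterisk a call, and grey a gene not tested in that line. Among the higher genes 14 carry an asterisk at 2 h, 13 at 24 h, 14 in M1 and 5 in MDA-MB-231.

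Tests of the difference between lines gave few genes against M1 and more against MDA-MB-231. The response of M2 at 8 h was more positive than that of M1 in 56 of 21857 genes (0.256%) and more negative in 57 (0.261%), and after median-of-ratios scaling in 94 (0.43%) and 149 (0.682%). A gene could enter this fit through the libraries of 1 line, and of the 16505 genes that passed the filter in both lines 38 were more positive and 25 more negative. The 56 became 98 without TGF-β 8 h replicate 1 of M2. It became 28 to 36 without TGF-β replicate 2 or 3 or SB replicate 1 or 2 of M2, or TGF-β replicate 2 or 3 or SB replicate 1 or 2 of M1.

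Against MDA-MB-231 the response of M2 was more positive in 488 of 20203 genes (2.42%) and more negative in 91 (0.45%), and after rescaling in 607 (3%) and 464 (2.3%). Of the 13797 genes that passed the filter in both lines 285 were more positive and 51 more negative, and 387 and 387 after rescaling. The leading genes were chosen by the M2 difference that enters these tests. The 488 became 844 without TGF-β 8 h replicate 1 of M2, 278 without replicate 2, 240 without replicate 3 and 277 without SB replicate 1. It became 242 without SB replicate 3 and 255 without TGF-β replicate 2 of MDA-MB-231. NONHSAG048398.2 differed more in M2 by 2.15 (SE 0.36, limma adjusted p = 0.000242), while against M1 the difference was −0.32 (SE 0.31, limma adjusted p = 0.795). NONHSAG016461.2 did not pass the filter in MDA-MB-231, so its difference within that line was not tested. There it stood at 0.175, 0.132 and 0 TPM with TGF-β and 0.111, 0.392 and 0 TPM with SB at 8 h. It entered the fit of both lines through M2, and its response was more positive in M2 by 4.83 (limma adjusted p = 8.19e-06). NONHSAG072189.1 was more negative in M2 by −1.61 (SE 0.34, limma adjusted p = 0.00441), with a log2 difference of −0.75 in MDA-MB-231. NONHSAG032247.3 went the same way in all 3 lines, with log2 differences of −2.43 in M2, −1.68 in M1 and −2.2 in MDA-MB-231. Its tests between lines did not reach the threshold (limma adjusted p = 0.757 against M1 and 0.857 against MDA-MB-231). Rank 10 among the higher genes was the exception in size: its log2 difference was 5.80 in MDA-MB-231 and 3.82 in M2, and the difference of −1.98 was called (limma adjusted p = 0.00459).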

How the data were processed

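Total RNA from the M2 libraries was sequenced, per the labels' protocols. The tools were StringTie 1.3.6, HISAT2 2.2.0, cutadapt 2.10 and FastQC on the build GRCh38, per the submitters' processing notes. Their settings, the annotation release and the strandedness were not given in the sources used here. What the authors deposited is 1 table of TPM with 96411 lncRNA genes and 72 columns, in which the lncRNA genes alone make up the whole of a library. Since strandedness is not stated, antisense or overlapping genes, and genes with near-identical copies, may share reads. No column repeated another.

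Groups came from the sample labels. Members reached 0.5 TPM in 3 or more libraries of a fit. The test was limma (version 3.58.1, R 4.3.3; contrasts.fit after lmFit, then eBayes with a trend) on log2 values of TPM plus a pseudocount of 0.5, read in with the package data.table (version 1.17.8). All 24 M2 libraries (8 groups) entered the fit, and 48 libraries entered the comparisons of M2 with another line. Tests were two-sided, adjusted by Benjamini-Hochberg over all genes of a fit, and called at an adjusted p under 0.05. The replicates are called biological; if they were not grown separately, the p-values cover no more than the spread between the samples at hand. Leading genes are the 15 per direction of largest absolute log2 difference among genes called with the same sign as deposited and after median-of-ratios scaling, with no overlap of the groups; 2 identifiers per direction are printed, since 0 could be paired with a symbol. For the same reason no gene list was used. The members, rules and lists were chosen with earlier results of these data known. Other settings were pseudocounts of 1 and 0.1, a mean of 1 TPM or more as the filter, no filter at all, 3 other scalings, a fit of the compared groups alone, a block for the replicate number, and each library left out. Leaving out libraries under the other scalings, and leaving out genes that swung between replicates, were added after seeing the data. The fit was tested on simulated data. There the deviations from the group means were shuffled within each gene, so shifts of whole single libraries were not part of that test.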

Additional observations from a re-analysis of the deposited data

Results flagged for a closer look

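In the interaction test of limma, the difference between the TGF-β and SB arms of M2 was itself different at 24 h and 8 h in 399 of 16958 genes. Between 8 h and 2 h it was different in 10 of 16958 genes. NONHSAG072189.1 was one of the 10, with a change of the difference of −2.13 between 2 h and 8 h. The differences at 8 h were unlike those of M1 in 113 of 21857 genes and unlike those of MDA-MB-231 in 579 of 20203 genes. Among the named genes, the comparison with MDA-MB-231 differed by 2.15 for NONHSAG048398.2 and by −1.61 for NONHSAG072189.1, both on the log2(TPM + 0.5) scale. It also differed by 4.83 for NONHSAG016461.2, which did not pass the filter in MDA-MB-231. After median-of-ratios scaling the counts of 399, 10, 113 and 579 genes became 701, 224, 243 and 1071. The libraries that move these counts, and the counts among genes that passed the filter in both lines, are given above.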

How the results depend on the processing

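The 4 named genes kept direction and call under all 16 settings, with log2 differences of 4.43 to 5.07 for NONHSAG048398.2, 4.03 to 5.95 for NONHSAG016461.2, −3.62 to −1.82 for NONHSAG032247.3 and −2.63 to −2.19 for NONHSAG072189.1 (largest limma adjusted p 0.00841). Over all results and settings 336 values stayed within their limits, 107 counts moved by more than 1.5 times, 11 calls of single genes between 8 h and 2 h were lost, and 0 directions reversed. TPM keeps no depth, so detection limits are unknown, and low genes need larger differences to be called.

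Counts at 8 h are given as higher and lower. They were 1072 and 826 after median-of-ratios scaling, 871 and 823 after quantile normalization, 588 and 86 when the total did not include the 10 most abundant genes, and 682 and 135 from the compared groups alone. Without 1 library they ran from 406 to 1491 and from 79 to 99, after median-of-ratios scaling from 574 to 922 and from 428 to 773, and under all 4 scalings from 272 to 429 and from 43 to 58. Between the groups the mean number of genes at 0.5 TPM or more differed by 1936, with SDs of 1146 with TGF-β and 700 with SB. The mean share of TPM in the 10 most abundant genes differed by −2.9 percentage points, with SDs of 5.19 and 2.09.

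Whether replicate numbers pair the samples was not settled. Deviations of same-numbered TGF-β and SB libraries at 8 h correlated with r = 0.136, −0.0185 and 0.0866. For libraries of unlike number r ran from −0.124 to 0.0389. TGF-β replicate 2 correlated best with SB replicate 3 (r = 0.0389), while replicates 1 and 3 correlated best with the SB library of their own number. With the replicate number as a block, limma called 970 higher and 127 lower, and 1046 and 771 with median-of-ratios scaling. The block gave 0 and 3 genes between 8 h and 2 h.

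Between 8 h and 2 h (more positive and more negative at 8 h) there were 7 more positive at a pseudocount of 1, 4 more negative at 0.1 and 4 with no filter, 6 and 21 at a mean of at least 1 TPM, 62 and 162 after median-of-ratios scaling, 62 and 109 after quantile normalization, 0 and 0 without the 10 most abundant genes in the total (1149 at an unadjusted p under 0.05), and 0 to 27 and 3 to 566 without 1 library. Between 24 h and 8 h there were 91 more positive with no filter, 375 after median-of-ratios scaling and 310 after quantile normalization, 40 more negative without the 10 most abundant genes in the total, and 33 to 53 and 143 to 597 without 1 library. Against M1 there were 26 and 21 at a pseudocount of 0.1, 26 and 22 at a mean of at least 1 TPM, 94 and 149 after median-of-ratios scaling, 87 and 119 after quantile normalization, and 28 to 98 more positive without 1 library. Against MDA-MB-231 there were 308 more positive at a pseudocount of 0.1, 307 at a mean of at least 1 TPM, 464 and 418 more negative after median-of-ratios scaling and quantile normalization, and 240 to 844 more positive without 1 library. The causes were not tested.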
